A study of Mus musculus with 18 samples.

Results

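The transcripts described here are those of 10 genes whose products restrain ERK signalling, matched by symbol and identifier among the 53801 genes counted: the Sprouty genes Spry1, Spry2 and Spry4, the Sprouty-related genes Spred1, Spred2 and Spred3, and the dual-specificity phosphatase genes Dusp4, Dusp5, Dusp6 and Dusp7. FGF binding to its receptor activates RAS, RAF, MEK and ERK in turn, and ERK drives transcription of several of its own inhibitors. Sprouty and Spred proteins act on the receptor, RAS and RAF steps, and the dual-specificity phosphatases remove phosphate from ERK itself, with DUSP4 and DUSP5 in the nucleus and DUSP6 and DUSP7 in the cytoplasm. In mouse embryonic stem cells (ESCs), FGF4 made by the cells keeps this pathway active unless MEK is inhibited, and ERK activity is needed for exit from naive pluripotency. The question was which of the 10 transcripts changed once the MEK inhibitor was withdrawn, and whether they did so alike in both cell lines.

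RNA sequencing covered 18 libraries in 6 groups of 3 biological replicates, from WT cells (E14) and iEZR_CA cells in 2i+LIF (ESC) and after 24 h (T24) or 48 h (T48) in N2B27. 2i+LIF is N2B27 with the MEK inhibitor PD0325901, the GSK3 inhibitor CHIR and leukemia inhibitory factor, so ESCs of both lines had MEK inhibited, and all 3 factors were withdrawn together at exit. The iEZR_CA line was made from E14 cells with a PiggyBac vector that expresses a phosphomimetic ezrin, a protein tying the membrane to the actin cortex, when doxycycline is given, and the drug was added before exit, in 2i+LIF. Doxycycline is not given for WT cells in the sources used here, and the line is a single engineered one, so the transgene, the drug and the line's own history cannot be told apart in any comparison of the lines. Libraries held 10940752 to 33276622 counts on genes (median 23096248). Normalized counts of the ezrin gene lay between 7539 and 12017 in the WT libraries and between 16067 and 25358 in the iEZR_CA libraries, with no overlap, and reads of the endogenous gene and the transgene were not separated.

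Transcripts of 4 general pluripotency genes (Pou5f1, Sox2, Sall4 and Utf1) were present in all groups, while the naive genes fell after exit. Summed levels per length of 6 naive pluripotency genes (Nanog, Esrrb, Klf4, Tfcp2l1, Zfp42 and Tbx3) were 1437 ± 16.7, 424 ± 9.85 and 35 ± 0.612 fragments per kilobase of exon, scaled to the library's count on genes (FPKM; mean ± SD, n = 3) in WT at ESC, T24 and T48, and 1310.0 ± 1.73, 808 ± 6.97 and 187 ± 11 in iEZR_CA. Formative genes (Otx2, Fgf5, Pou3f1, Lef1 and Dnmt3b, 5 in all) summed to 33.0 ± 0.327, 426 ± 13.4 and 775 ± 33.0 FPKM in WT and to 37.1 ± 1.35, 154 ± 5.48 and 404 ± 11.1 FPKM in iEZR_CA. All 6 naive genes were higher in iEZR_CA at T24 and T48. All 5 formative genes were lower there at T24, and at T48 Pou3f1, Lef1 and Dnmt3b were lower, Otx2 was higher (0.75) and Fgf5 was not called (0.12). In these comparisons 60.9% of all genes tested were called at T24 and 61.1% at T48. Whether this difference in cell state moved the feedback genes was not tested. In bulk RNA, fewer cells of a type and less RNA per cell cannot be told apart. Markers of other lineages were also measured, and several moved with the groups. The sum of 3 neural markers was 2.14, 7.65 and 10.8 FPKM in WT at ESC, T24 and T48 and 1.27, 4.04 and 4.67 FPKM in iEZR_CA, higher after exit and lower in iEZR_CA as were most feedback genes, with Sox1 the most abundant in 5 of the 6 groups. The sum of 4 primitive streak markers was 16.1 FPKM in WT ESCs and 22.5 FPKM in iEZR_CA ESCs, and 1.70 to 3.22 FPKM after exit. Most of it in ESCs was Gsc (13.7 FPKM in WT and 20.7 FPKM in iEZR_CA), while Eomes went the other way (1.81 and 1.23 FPKM). Of the 3 tested, 1 was called higher in iEZR_CA ESCs and 1 lower, against 54.5% of all genes called. The 8 primitive endoderm markers summed to 1.30 to 5.37 FPKM. Dab2, the most abundant of them in iEZR_CA, was at 4.06 FPKM in iEZR_CA ESCs against 0.292 FPKM in WT ESCs. Gata4 (0.210 against 1.187 FPKM) and Sox7 (0.0185 against 0.115 FPKM) went the other way. In ESCs 2 of the 8 were called higher in iEZR_CA, 2 lower and 4 not, against 54.5% of all genes called. The 4 fibroblast markers summed to 0.128 to 0.189 FPKM in ESCs and at T24 and to 3.01 and 2.92 FPKM at T48 in WT and iEZR_CA. Within the T48 sums, Col1a1 (0.370 FPKM in WT, 0.121 FPKM in iEZR_CA) and Col1a2 (0.775 and 0.0412 FPKM) were lower in iEZR_CA. Dcn was higher there (1.865 FPKM in WT, 2.756 FPKM in iEZR_CA). All 3 tested were called, against 61.1% of all genes. The part of these markers in the feedback genes' values was not tested. Of the streak markers, Mesp1 was at or under 3 counts in every library of 5 of the 6 groups, and Postn, a fibroblast marker, in all 6.

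All 10 genes are protein coding, and coordinates below are those of the mouse build GRCm38. Spry1 lies at chromosome 3, 37639947 to 37644598 (plus strand), Spry2 at chromosome 14, 105891947 to 105896819 (minus strand) and Spry4 at chromosome 18, 38586247 to 38601415 (minus strand). Spred1 lies at chromosome 2, 117121374 to 117182279 (plus strand), Spred2 at chromosome 11, 19924375 to 20024026 (plus strand) and Spred3 at chromosome 7, 29158829 to 29170411 (minus strand). Dusp4 lies at chromosome 8, 34807297 to 34819894 (plus strand), Dusp5 at chromosome 19, 53529109 to 53542431 (plus strand), Dusp6 at chromosome 10, 99263231 to 99267489 (plus strand) and Dusp7 at chromosome 9, 106368632 to 106375724 (plus strand). Spry1, Spry4 and Spred3 overlap genes of the opposite strand. The most counted of these is Ggn, with 314 counts over all 18 libraries against 8110 for Spred3, and whether the counting used strand is not given in the sources used here.

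After withdrawal of the MEK inhibitor, the summed level of the feedback transcripts was higher in WT cells and their make-up was different. Their summed level per length was 88.7 ± 0.274 FPKM in WT ESCs, 220.2 ± 2.87 FPKM at T24 and 274 ± 5.11 FPKM at T48, against 65.3 ± 1.17, 139 ± 0.945 and 181 ± 0.325 FPKM in iEZR_CA (mean ± SD, n = 3). In ESCs of both lines, under MEK inhibition, Spry2 was the most abundant, at 44.6 ± 0.813 FPKM in WT and 27.7 ± 1.07 FPKM in iEZR_CA, or 50.3% and 42.4% of the sum. Spred2 came next in both lines (19.1 ± 0.565 and 15.0 ± 0.184 FPKM). At T48 the order was headed by Dusp4, which made up 27.7% of the sum in WT and 31.7% in iEZR_CA, whereas in ESCs it had been the least abundant of the 10 in either line. The 4 phosphatase genes together went from 15.5 ± 0.458 FPKM in WT ESCs to 148.5 ± 1.24 FPKM at T48, while the 3 Sprouty genes were highest at T24 (47.0 ± 0.947, 79.1 ± 0.752 and 54.0 ± 1.49 FPKM).

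**Figure D1:**
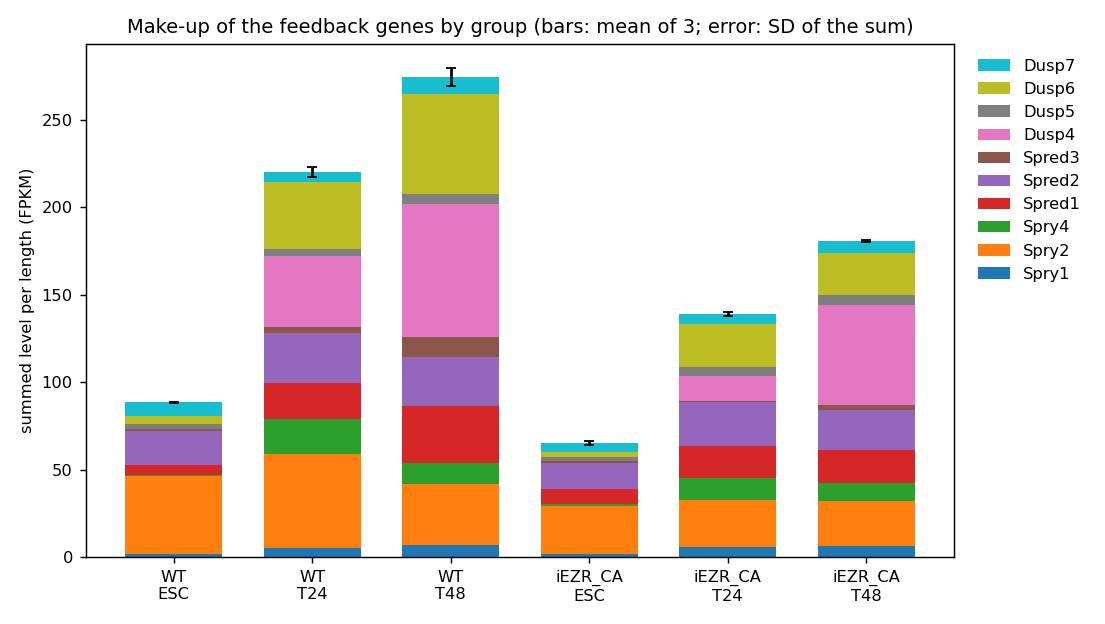
Stacked bars give the summed level per length (FPKM) of the 10 feedback genes in each group, each segment the mean of 3 libraries, with the SD of the sum as error. The sum rises from 88.7 to 274 FPKM in WT and from 65.3 to 181 FPKM in iEZR_CA, and Dusp4 goes from the smallest segment in ESCs to the largest at T48 in both lines.

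The order of the 10 genes by FPKM was read against the overlap of library ranges between neighbours. In WT ESCs only Spry4 (0.614 ± 0.152 FPKM) and Dusp4 (0.45 ± 0.105 FPKM), the last in the order, overlapped. In WT at T48 the order was Dusp4 (76.0 ± 1.41), Dusp6 (57.3 ± 0.768), Spry2 (34.8 ± 1.51), Spred1 (32.8 ± 1.97), Spred2 (27.6 ± 1.22), Spry4 (12.2 ± 0.147), Spred3 (11.4 ± 0.343), Dusp7 (9.34 ± 0.328), Spry1 (7.01 ± 0.806) and Dusp5 (5.91 ± 0.217 FPKM), with overlap between Spry2 and Spred1 and between Spry1 and Dusp5. In iEZR_CA at T48 Dusp4 (57.3 ± 0.84 FPKM) stood clear of the rest, and Spry2, Dusp6 and Spred2 followed at 25.3 ± 1.48, 24.3 ± 1.07 and 22.8 ± 0.657 FPKM with overlapping neighbours. Spred3 was last there, at 2.94 ± 0.216 FPKM, whereas Dusp5 was last in WT.

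**Figure D2:**
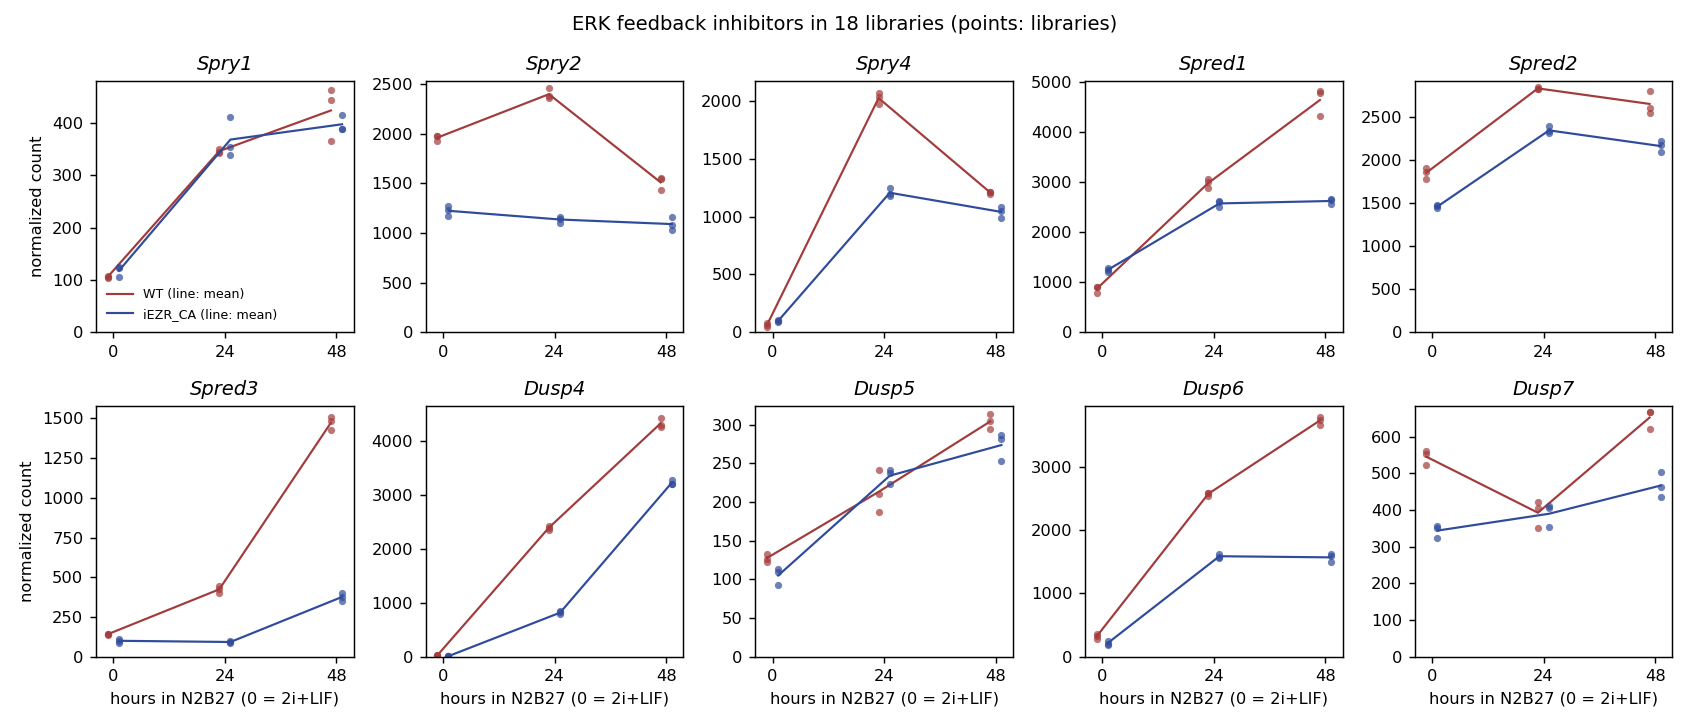
Normalized counts of each gene (vertical axes, from 0) against hours in N2B27, with 1 point per library, 3 libraries per group and lines through the group means for WT and iEZR_CA. Spry2, Spred2, Spred3, Dusp4 and Dusp6 are lower in iEZR_CA at all 3 stages, and Spry4 and Spred1 at T24 and T48 only. Spry1 overlaps between the lines at all 3 stages, and Dusp5 and Dusp7 overlap at T24.

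The test for each gene was the quasi-likelihood test of edgeR, fitted to all 18 libraries with Benjamini-Hochberg adjustment over 18469 genes, all 10 members among them, and changes are called here where the adjusted p-value was under 0.05. The first 24 h changed most of the list in WT cells: 9 members rose and 1, Dusp7, fell, against 65.4% of all tested genes called in either direction. The median log2 fold change of the members was 1.64, against -0.005 for all genes tested, and 6 members rose by more than 2-fold, where 20.8% of all genes changed by more than 2-fold in either direction. Over the same interval in iEZR_CA, 8 members rose, Spry2 fell and Spred3 was not called, with 56% of all genes called. The calls of Spry2 and of Dusp7, 1 of the 8, were lost with DESeq2 (adjusted p = 0.068 for each). With spike-in scaling they were also lost (0.86 and 0.057), and the sign of Spry2 turned (0.039). The members' median was 1.10, against -0.008 for all genes. These were the intervals in which the MEK inhibitor, CHIR and LIF were withdrawn, and no library separates them.

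Spry4, a Sprouty gene often used as a readout of FGF and ERK activity, gave the largest rise of the family. Its normalized counts were 47.2, 60.5 and 76.6 in the 3 WT ESC libraries, 1971, 2033 and 2071 at T24 and 1195, 1214 and 1216 at T48. The iEZR_CA values were 98.6, 87.9 and 105 in ESCs, 1246, 1191 and 1179 at T24 and 1049.7, 1080.2 and 990.4 at T48. The WT libraries peaked at T24 and lay above every iEZR_CA library there, whereas in ESCs the iEZR_CA libraries were the higher and the ranges did not touch. The log2 fold change from ESC to T24 was 5.0 ± 0.071 (SE, adjusted p = 1.5e-59) in WT, a 32.0-fold rise, and 3.65 ± 0.073 (SE, adjusted p = 4.7e-50) in iEZR_CA, 12.5-fold. The rise was smaller in iEZR_CA, with a difference of -1.35 ± 0.14 on the log2 scale (SE, interaction of line and time, adjusted p = 5.7e-13). From T24 to T48 Spry4 fell in both lines, with log2 fold changes of -0.75 in WT and -0.20 in iEZR_CA, of which that in iEZR_CA was not called with spike-in scaling (-0.10, adjusted p = 0.57). By T48 the difference between the lines was -0.21 ± 0.046 (SE, adjusted p = 0.0001), and with spike-in scaling it was -0.16 and not called (adjusted p = 0.37).

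Spry2, another Sprouty gene, behaved differently. Its counts were 1929.8, 1974 and 1977 in WT ESCs, 2459, 2380.2 and 2355 at T24 and 1435, 1553 and 1542 at T48. In iEZR_CA they were 1229, 1171 and 1268 in ESCs, 1164, 1143 and 1096 at T24 and 1158, 1028 and 1083 at T48. Every iEZR_CA library was below every WT library of its stage, also in ESCs, where MEK was inhibited in both lines. The difference between the lines was -0.69 ± 0.041 (SE, adjusted p = 1.2e-23) in ESCs, -1.08 ± 0.041 (SE, adjusted p = 2.2e-34) at T24 and -0.46 ± 0.043 (SE, adjusted p = 4.4e-15) at T48. In WT it rose by 0.28 (log2) over the first 24 h and then fell by 0.68. In iEZR_CA the change to T24 was small (-0.11 ± 0.044 SE, adjusted p = 0.032), its call was lost with DESeq2 (adjusted p = 0.068), and its sign turned with spike-in scaling (0.039, adjusted p = 0.86). Leaving out WT T48 replicate 2, iEZR_CA ESC replicate 1 or 3 or iEZR_CA T24 replicate 3 also ended its call (adjusted p = 0.068 to 0.16). So did no filter on low counts (0.21) and fitting only the groups compared (0.059).

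Spry1, which like the other Sprouty genes restrains growth factor signalling, overlapped between the lines. Counts were 108, 104 and 105 in WT ESCs, 351, 343 and 345 at T24 and 444, 463 and 367 at T48. In iEZR_CA they were 123, 124 and 105 in ESCs, 355, 413 and 339 at T24 and 417, 389 and 389 at T48. The ranges of the lines overlapped at all 3 stages. It rose in both lines over the first 24 h, by 1.71 ± 0.10 in WT and 1.64 ± 0.10 in iEZR_CA (log2 ± SE). The rises differed by -0.064 ± 0.14 (SE, adjusted p = 0.77), or by -0.165 to 0.003 with 1 library left out. At T48 the difference between the lines was -0.064 ± 0.074 (SE, adjusted p = 0.47), and leaving out the third WT T48 library, which was the lowest of its group, made it -0.18 (adjusted p = 0.048).

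Spred3, which like the other Spred genes restrains RAS and ERK signalling, showed the widest gap between the lines. WT libraries held 145, 142 and 138 normalized counts in ESCs, 401, 446 and 426 at T24 and 1429, 1479.9 and 1508 at T48. The iEZR_CA libraries held 102, 113 and 86.8 in ESCs, 87.7, 99.5 and 91.9 at T24 and 404, 348 and 378 at T48. In WT each stage lay above the last, and in iEZR_CA ESC and T24 libraries overlapped and only those at T48 were higher. The log2 fold change from ESC to T24 was 1.57 ± 0.081 (SE, adjusted p = 2.8e-27) in WT and -0.13 ± 0.12 (SE, adjusted p = 0.38) in iEZR_CA, a difference of -1.7 ± 0.15 (SE, adjusted p = 1.8e-15). Over the second interval both lines rose, by 1.8 ± 0.057 in WT and 2.0 ± 0.09 in iEZR_CA, and the interaction was 0.20 ± 0.11 (SE, adjusted p = 0.15). The level in iEZR_CA was 0.223 times that in WT at T24 and 0.257 times at T48.

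Spred1, the Spred gene mutated in Legius syndrome, crossed over between the lines. Counts were 904, 899.8 and 782 in WT ESCs, 2987, 3063 and 2877 at T24 and 4313, 4809 and 4772 at T48. The iEZR_CA values were 1231, 1285 and 1209.6 in ESCs, 2613, 2591 and 2499 at T24 and 2656, 2562 and 2633 at T48. The iEZR_CA libraries were all higher in ESCs and all lower at T24 and T48. The differences were 0.53 ± 0.048 (SE, adjusted p = 1.8e-13) in ESCs, -0.22 ± 0.039 (SE, adjusted p = 3.9e-06) at T24 and -0.81 ± 0.037 (SE, adjusted p = 1.7e-24) at T48, of which that at T24 was not called with spike-in scaling (-0.14, adjusted p = 0.42). In WT Spred1 rose over both intervals, by 1.78 and 0.63, and in iEZR_CA it rose by 1.04 over the first and changed by 0.03 ± 0.039 (SE, adjusted p = 0.53) over the second.

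Spred2, which also holds back RAS and RAF signalling, rose in both lines from different levels. Its counts were 1917, 1865 and 1786 in WT ESCs, 2854, 2826 and 2837 at T24 and 2611, 2805 and 2557 at T48. In iEZR_CA they were 1464, 1477 and 1449 in ESCs, 2398, 2315 and 2337 at T24 and 2185, 2224 and 2092 at T48. Every iEZR_CA library lay below every WT library of its stage. The rise over the first 24 h was 0.60 ± 0.034 in WT and 0.68 ± 0.037 in iEZR_CA, and the interaction was 0.073 ± 0.05 (SE, adjusted p = 0.27). The lines differed by -0.35, -0.27 and -0.28 at ESC, T24 and T48, and with spike-in scaling the differences were -0.295, -0.20 and -0.23 and were not called (adjusted p = 0.068, 0.21 and 0.14).

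Dusp4, a nuclear phosphatase of ERK, JNK and p38, had the largest change of the 10 genes. WT ESC libraries held 19.1, 30.6 and 28.1 normalized counts, T24 libraries 2401, 2435 and 2363 and T48 libraries 4263, 4443 and 4301. In iEZR_CA the values were 13.3, 15.9 and 7.0 in ESCs, 786, 824 and 849 at T24 and 3205, 3288 and 3206 at T48. It was low in ESCs, with 5 to 19 raw counts per library in iEZR_CA, rose at each stage, and was lower in every iEZR_CA library than in any WT library of its stage. The rise to T24 was 88.9-fold in WT (log2 6.47 ± 0.074 SE, adjusted p = 4.7e-65) and 63.5-fold in iEZR_CA (log2 5.99 ± 0.11 SE, adjusted p = 1e-52), and the difference of the rises was -0.49 ± 0.27 (SE, adjusted p = 0.2). That difference was -0.19 without iEZR_CA ESC replicate 2 and -0.69 without iEZR_CA ESC replicate 3. The second rise was larger in iEZR_CA, 1.98 ± 0.04 against 0.85 ± 0.035 (log2 ± SE), by 1.13 ± 0.053 (SE, adjusted p = 1.2e-28). The lines differed by -1.55 ± 0.041 at T24 and by -0.41 ± 0.034 at T48.

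Dusp6, the cytoplasmic phosphatase specific to ERK, rose over both intervals in WT and over the first in iEZR_CA. Counts were 328, 274 and 361 in WT ESCs, 2591, 2581 and 2546 at T24 and 3786, 3746 and 3663 at T48. The iEZR_CA counts were 202, 193 and 255 in ESCs, 1576, 1557 and 1631 at T24 and 1497, 1627 and 1585 at T48. The iEZR_CA libraries were below the WT libraries at every stage, and at T24 and T48 they overlapped each other. The first rise was 8.0-fold in WT and 7.46-fold in iEZR_CA, and the interaction was -0.10 ± 0.10 (SE, adjusted p = 0.46). With 1 library left out, that interaction ran from -0.20 to 0.022. From T24 to T48 the log2 fold change was 0.53 ± 0.042 (SE, adjusted p = 1.9e-14) in WT and -0.015 ± 0.047 (SE, adjusted p = 0.81) in iEZR_CA, a difference of -0.55 ± 0.063 (SE, adjusted p = 1.5e-09). The gap between the lines was -0.60 ± 0.086 in ESCs, -0.70 ± 0.045 at T24 and -1.24 ± 0.044 at T48.

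Dusp5 and Dusp7 changed less. Dusp5, a nuclear phosphatase specific to ERK, had 127, 133 and 123 counts in WT ESCs, 211, 241 and 188 at T24 and 304, 294 and 313 at T48. In iEZR_CA they were 113, 92.9 and 109 in ESCs, 241, 223 and 237 at T24 and 253, 281 and 287 at T48. It rose over both intervals in both lines, and the ranges of the lines overlapped at T24. The second rise in iEZR_CA was not called without T24 replicate 2 (adjusted p = 0.11), T48 replicate 2 (0.079) or T48 replicate 3 (0.06). The difference in ESCs, -0.31 ± 0.12 (SE, adjusted p = 0.021), was not called without the second WT library (adjusted p = 0.082), without the second iEZR_CA library (0.19) or with spike-in scaling (-0.24, adjusted p = 0.33). The first rise was 0.74 ± 0.10 in WT and 1.16 ± 0.11 in iEZR_CA, and the interaction, 0.42 ± 0.15 (SE, adjusted p = 0.017), was not called without the second iEZR_CA ESC library (adjusted p = 0.1).

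Dusp7, a cytoplasmic phosphatase close to DUSP6, was the exception to the rise in WT. Counts were 562, 552 and 522 in WT ESCs, 422, 406 and 349.9 at T24 and 667, 667 and 622 at T48. The iEZR_CA counts were 323, 352 and 357 in ESCs, 411, 406 and 353 at T24 and 462, 436 and 502 at T48. In WT the T24 libraries were the lowest, and the lines overlapped at T24 alone. The log2 fold change to T24 in WT was -0.46 ± 0.066 (SE, adjusted p = 9.8e-09), and the later rise 0.70 ± 0.066 (SE, adjusted p = 6.7e-15). In iEZR_CA the first change, 0.17 ± 0.074 (SE, adjusted p = 0.04), had overlapping groups and was not called by DESeq2 (adjusted p = 0.068), or without ESC replicate 1, T24 replicate 1 or T24 replicate 2 (0.13 to 0.2). With spike-in scaling it was 0.33 and not called (adjusted p = 0.057). The lines differed by -0.67 ± 0.069 in ESCs, -0.039 ± 0.071 (SE, adjusted p = 0.66) at T24 and -0.48 ± 0.064 at T48. With 1 library left out, the T24 value ran from -0.095 to 0.032.

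**Figure D3:**
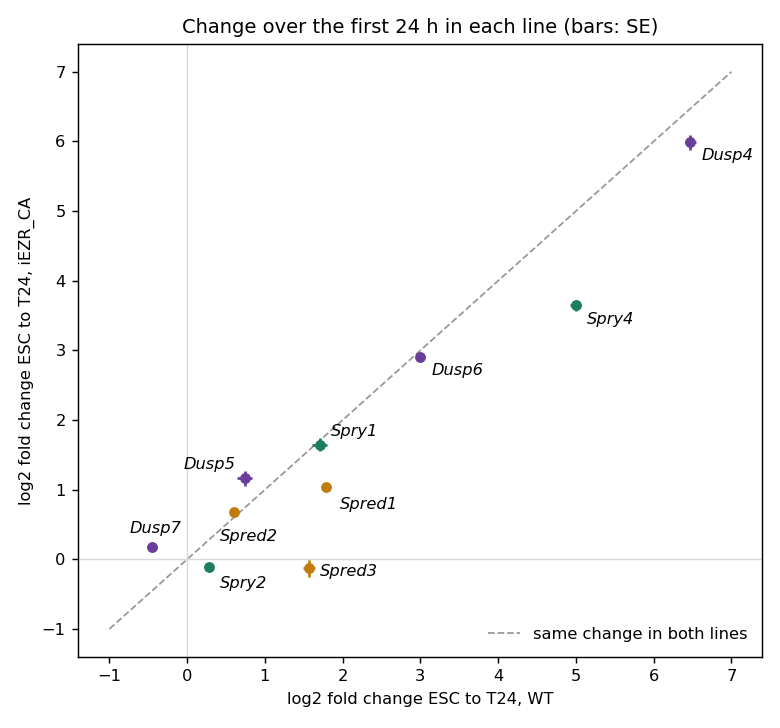
Log2 fold change from ESC to T24 in WT (horizontal) and in iEZR_CA (vertical) for the 10 genes, with SE bars, coloured by family (Sprouty green, Spred orange, Dusp purple), and a dashed line of equal change. Dusp4, Spry4 and Dusp6 lie farthest out. All but Spred2, Dusp5 and Dusp7 lie below the line, of which Spry2, Spry4, Spred1 and Spred3 had a called interaction. Spry2, Spred3 and Dusp7 are near 0 in iEZR_CA.

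Over the second 24 h, 7 members rose and 3 (Spry2, Spry4 and Spred2) fell in WT, against 65.7% of all genes called, with a median of 0.52, though the small change of Spred2 (-0.11) turned to 0.024 with spike-in scaling (adjusted p = 0.9) and was not called without WT T48 replicate 3 (0.074). In iEZR_CA 4 rose (Spred3, Dusp4, Dusp5 and Dusp7), Spry4 and Spred2 fell, and Spry1, Spry2, Spred1 and Dusp6 were not called, against 59.6% of all genes. With spike-in scaling 3 were called there, all higher, against 37.5% of all genes called with that scaling. Spry4 (-0.10, adjusted p = 0.57), Spred2 (-0.007, adjusted p = 0.97) and Dusp5 (0.34, adjusted p = 0.072) were then not called. The members' median there was 0.065, against 0.007 for all genes tested. Tested directly, the change over the first 24 h differed between the lines for 6 members (background 38.3%): it was lower in iEZR_CA for Spry2, Spry4, Spred1 and Spred3 and higher for Dusp5 and Dusp7. Over the second 24 h it differed for 6 members (background 46.2%), lower in iEZR_CA for Spred1, Dusp6 and Dusp7 and higher for Spry2, Spry4 and Dusp4. With spike-in scaling 3 of these differences kept a like size but were not called: Spry2 (-0.38, adjusted p = 0.19) and Dusp5 (0.44, adjusted p = 0.25) over the first interval and Dusp7 (-0.49, adjusted p = 0.066) over the second. The 2 intervals share their T24 libraries.

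Between the lines, the members were mostly lower in iEZR_CA at all 3 stages. In ESCs 7 were lower and 2 (Spry4 and Spred1) higher, and Spry1 was not called, against a background of 54.5% of genes called. At T24 iEZR_CA had 7 lower members and 0 higher (60.9% of all genes called), and at T48 it had 8 lower and 0 higher (61.1% called). Those counts of 0 were also 0 at an unadjusted p-value under 0.05 in edgeR and with DESeq2. The members' medians were -0.41, -0.49 and -0.44 at the 3 stages, against -0.009, -0.002 and 0.0 for all genes tested. The share of members called at T24 was 70% and so near the background. The calls there were all in 1 direction, in a background where 30.8% of genes were higher and 30.1% lower. The comparisons at T24 and T48 against the intervals above share libraries, so their values are given side by side without a test of likeness.

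**Figure D4:**
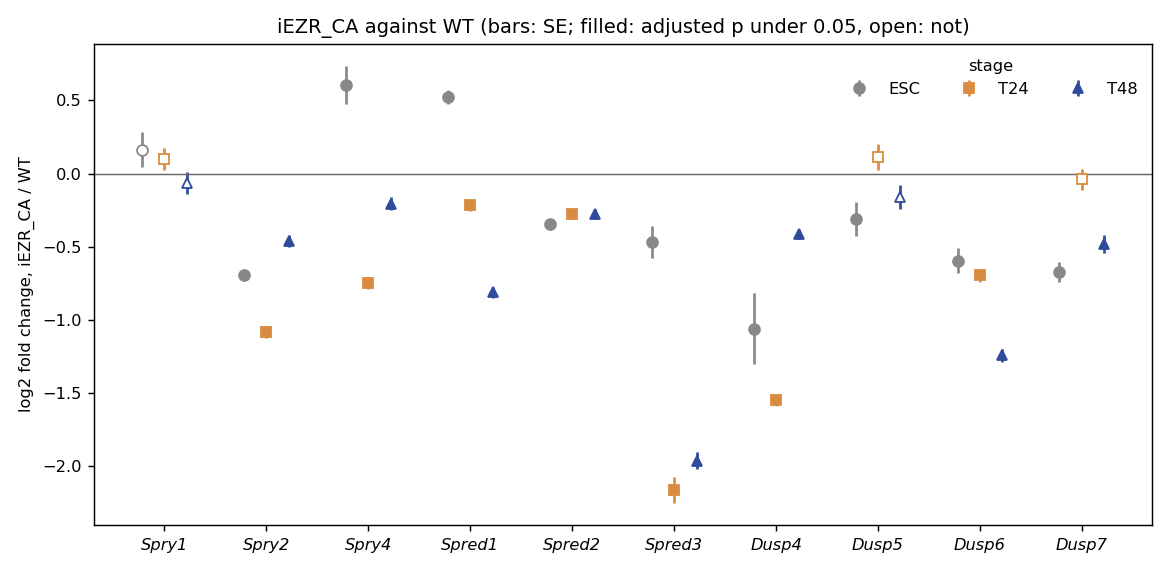
Log2 fold change of iEZR_CA against WT for the 10 genes in ESCs (grey circles), at T24 (orange squares) and at T48 (blue triangles), with SE bars and filled symbols where the adjusted p-value was under 0.05. Spred3 reaches -2.16 at T24, Spry4 and Spred1 are above 0 in ESCs only, and Spry1 is open at all 3 stages.

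RNA quality measures moved with the groups. Mitochondrial messenger RNA took 0.770% to 0.841% of gene counts in WT ESCs, 0.544% to 0.605% at T24 and 0.350% to 0.432% at T48, and 0.796% to 0.840%, 0.679% to 0.768% and 0.464% to 0.550% in iEZR_CA. Reads of low alignment quality took 0.519% to 0.612% of WT and 0.889% to 1.02% of iEZR_CA libraries. Reads not counted on a gene fell in 5 classes, and those of low alignment quality are among them. Together these classes took 21.3% to 21.9% of WT libraries in ESCs, 22.6% to 22.7% at T24 and 22.6% to 23.4% at T48. In iEZR_CA libraries they took 22.98% to 23.3%, 23.1% to 23.5% and 24.2% to 24.3%, with no overlap between the lines at any stage. Their part in the feedback genes' values was not tested.

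The promoters of the genes were searched for the letters of factors that ERK is known to regulate. RefSeq gave a window of 250 bases before to 50 after the start for 8 of the 10 members, on GRCm38.p6, all but Spry4 and Dusp4, and its start can differ from that of the gene model used for counting. On both strands, CCGGAA (the core of ETS factors such as ELK1) was found in the Spry2 window alone, 33 bases after the start, and the CArG box (bound by serum response factor) was found in Dusp5 alone, as 2 adjacent matches. TGANTCA (AP-1) and TGACGTCA (the cyclic AMP response element, CRE) were found in none. Of 32851 promoters of this length, 14.9% held CCGGAA, 7.81% TGANTCA, 1.79% TGACGTCA and 1.63% the CArG box. The bases before the start are shown for Dusp5, where both CArG boxes are in capitals, for Dusp6, which had the largest first rise in WT among the 8, and for Spred3, which had the widest gap between the lines. The Dusp6 and Spred3 windows hold no match.
Dusp5, chr19:53529045-53529144, plus strand: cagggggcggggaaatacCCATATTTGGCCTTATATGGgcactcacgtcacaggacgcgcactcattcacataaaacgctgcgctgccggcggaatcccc
Dusp6, chr10:99263131-99263230, plus strand: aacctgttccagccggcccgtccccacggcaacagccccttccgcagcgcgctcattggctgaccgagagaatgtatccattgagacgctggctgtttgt
Spred3, chr7:29168648-29168747, minus strand: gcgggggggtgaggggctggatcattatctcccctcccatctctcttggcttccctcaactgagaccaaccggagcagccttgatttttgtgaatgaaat

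Genes of the pathway upstream of the feedback genes had a median change nearer 0. Among 23 genes of the chain from FGF4 and its receptors to ERK, 12 rose and 5 fell in WT over the first 24 h (73.9% called, against 65.4% of all genes), with a median of 0.18. The RAF kinase gene Braf rose by 1.85 and the scaffold gene Ksr1 fell by 1.68 (log2). At T24 13 were higher and 5 lower in iEZR_CA than in WT (78.3% called, against 60.9% of all genes), with a median of 0.18. Fgf4, the ligand gene, was lower (-0.77 ± 0.046 SE, adjusted p = 4.9e-11) while Fgfr1, the receptor gene, was higher (0.50 ± 0.028 SE, adjusted p = 6.1e-25). At T48 both were higher in iEZR_CA, Fgf4 by 0.58 ± 0.049 (SE, adjusted p = 7e-09) and Fgfr1 by 0.33 ± 0.029 (SE, adjusted p = 2.7e-16).

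Transcripts that respond to ERK moved unevenly. Egr1, an immediate early transcription factor gene, had normalized counts of 13.5, 19.9 and 13.6 in WT ESCs, 274, 297 and 232 at T24 and 417, 461 and 517 at T48. In iEZR_CA it had 5.54, 4.19 and 5.6 in ESCs, 17.5, 32.7 and 22.5 at T24 and 205, 184 and 161 at T48. Like Dusp4 it rose at each stage and was lower in every iEZR_CA library than in any WT library of its stage, and the difference was -1.67 ± 0.42 (SE, adjusted p = 0.00062) in ESCs, -3.4 ± 0.15 (SE, adjusted p = 6.9e-29) at T24 and -1.32 ± 0.093 (SE, adjusted p = 1.3e-19) at T48. Etv4 and Etv5, ETS factor genes downstream of FGF, went the other way or less far: Etv4 was higher in iEZR_CA at all 3 stages (0.32, 0.26 and 0.36), and Etv5 lay at -0.072, -0.30 and 0.30, the first of which was not called by DESeq2 (adjusted p = 0.055). With spike-in scaling neither the ESC value (-0.015, adjusted p = 0.95) nor the T24 value (-0.22, adjusted p = 0.15) was called. Of the 12 ERK-responsive genes, 9 rose and 2 fell in WT over the first 24 h (median 0.97), and at T24 3 were higher and 6 lower in iEZR_CA (median -0.39). Those called were 91.7% and 75% of the list, against 65.4% and 60.9% of all genes. In ESCs 3 were higher and 6 lower (median -0.18), and at T48 5 were higher and 4 lower (median -0.041), which is 75% called at both stages, against 54.5% and 61.1% of all genes. Epha2 (1.57 ± 0.041 SE, adjusted p = 1.7e-43), a receptor tyrosine kinase gene, and Phlda1 (1.37 ± 0.21 SE, adjusted p = 3.8e-08) were more than 2-fold higher in iEZR_CA at T48.

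Other inhibitors of the pathway were set beside the members. Of 6 further MAP kinase phosphatase genes, 3 rose and 2 fell in WT over the first 24 h, and at T24 5 were lower and 1 higher in iEZR_CA (median -1.06). That is 83.3% and 100% of these 6 genes called, beside 65.4% and 60.9% of all genes. In ESCs 5 were lower and 0 higher in iEZR_CA (median -0.46), and at T48 3 were lower and 2 higher (median -0.34). At each of these stages 83.3% were called, beside 54.5% and 61.1% of all genes. Dusp1, an immediate early phosphatase gene, had counts of 822, 732 and 706 in WT at T24 and 298, 284 and 281 in iEZR_CA, a difference of -1.41 ± 0.069 (SE, adjusted p = 5.6e-26). Dusp9, a cytoplasmic ERK phosphatase gene, was higher in iEZR_CA at T48 (0.22 ± 0.035 SE, adjusted p = 1e-07), where spike-in scaling gave 0.27 and no call (adjusted p = 0.075), and lower in ESCs (-0.63). Of 12 other brakes on RAS and ERK, 6 rose and 3 fell in WT over the first 24 h, and at T24 4 were higher and 3 lower in iEZR_CA (median -0.012), or 75% and 58.3% called, beside the same 65.4% and 60.9%.

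**Figure D5:**
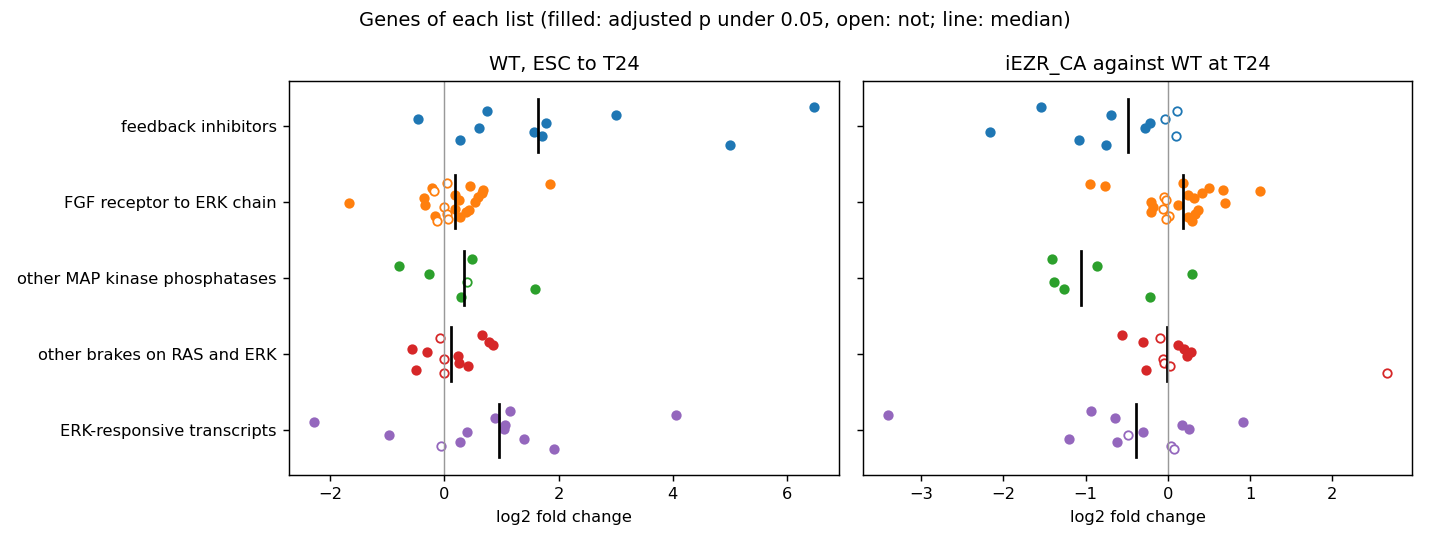
Log2 fold change of each tested gene of the 5 lists (rows) over the first 24 h in WT (left) and in iEZR_CA against WT at T24 (right), filled where the adjusted p-value was under 0.05, with a line at each list's median. The median of the feedback genes is 1.64 on the left and -0.49 on the right, and that of the chain from FGF receptor to ERK is 0.18 in both.

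The position of the genes was compared with their neighbours, since iEZR_CA and WT differed along some chromosomes. Over the 427 genes of chromosome 14 with a mean of at least 50 normalized counts, the median difference was -0.30 in ESCs, -0.35 at T24 and -0.24 at T48, but the 14 genes within 5 Mb of Spry2 had medians of -0.037, 0.055 and 0.14. Over chromosome 8 the median was 0.19, 0.24 and 0.20, opposite in sign to Dusp4 (-1.06, -1.55 and -0.41). Of the 116 genes in the 5 Mb window around Spred3, 0 lay below it at T24 and 1 at T48, and in ESCs 26 lay below it. Around Dusp6 the 20 genes of a 10 Mb window had medians of 0.12, 0.13 and 0.20. No called difference of a member changed its sign when the median of either window was subtracted, but 3 changed in size by over 1.5 times with the 5 Mb window: Spred3 in ESCs went from -0.47 to -0.29, Dusp4 at T48 from -0.41 to -0.66 and Spred2 at T48 from -0.28 to -0.44. Set against the SD of log2 counts among replicates, 10 differences, called or not, moved by at least that much with the 5 Mb window and 14 did not. With the 10 Mb window 13 did and 17 did not.

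The genes with the most similar profiles over the 18 libraries, by root mean square distance of centred log2 values, were Otx2 for Spry4 (distance 0.459, r = 0.977), Slc16a3 for Dusp4 (0.574, r = 0.986), Tmcc3 for Dusp6 (0.328, r = 0.977), Gstt2 for Spred3 (0.317, r = 0.980), Gng2 for Spry1 (0.137, r = 0.987), B3gnt7 for Spred1 (0.214, r = 0.975), Lsm14b for Spred2 (0.0718, r = 0.984), 2410002F23Rik for Spry2 (0.141, r = 0.946), Pimreg for Dusp5 (0.141, r = 0.971) and Mogs for Dusp7 (0.133, r = 0.933). Among the members themselves, Dusp4 and Dusp6 followed each other (r = 0.967), as did Dusp4 and Spry1 (0.969), Spry4 and Spry1 (0.961) and Dusp4 and Dusp5 (0.955). Spry2 was near 0 with Spry4 (-0.0173) and Dusp4 (-0.00797), and Dusp7 near 0 with Spry4 (0.0307). These 18 libraries share 6 groups and their stages, so the values describe the profiles only.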

How the data were processed

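RNA of WT and iEZR_CA cells was sequenced with paired-end reads. The authors trimmed the reads (Trim Galore 0.6.5), aligned them to mm10 with GSNAP and counted them per gene with HTSeq on Ensembl genes, and they deposited unnormalized counts of 53801 genes in 18 libraries. HTSeq does not count reads with several alignments, and use of strand in counting is not given in the sources used here. Of the gene identifiers, 53706 were in GENCODE M21, which gave symbols, positions and exon lengths. Reads not counted on a gene, among them those of low alignment quality, took 21.3% to 24.3% of a library and were left out. So were 92 spike-in sequences.

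Differences in counts were assessed in edgeR 4.0.16, run under R 4.3.3 (filterByExpr, TMM, a term for each of 6 groups, 12 residual degrees of freedom, robust quasi-likelihood test, Benjamini-Hochberg adjustment). The common biological coefficient of variation was 2.98%, so small changes were called. Normalized counts are counts divided by DESeq2 1.42.0 size factors, and FPKM divides counts by summed exon length in kilobases and scales to the library's total on genes. SEs were obtained by dividing each log2 fold change by the root of its F value.

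The 10 genes, the pathway and marker lists and the tests were chosen with earlier results of these data known. From each pathway list the text names from up to 4 genes with the largest called changes over the first 24 h in WT and between the lines, and in any case Egr1, Etv4, Etv5, Dusp9, Fgf4 and Fgfr1, as well as the members' nearest profile (pseudocount 1, mean of at least 50 normalized counts). The labels give no replicate numbers, so replicates were numbered within each group in accession order, which pairs none of them, and all 18 pairs of replicates differed by more than sampling noise (chi-square per degree of freedom 1.61 to 3.59). Alternatives were RLE factors, DESeq2, no filter, at least 10 counts in every library, spike-in scaling, fitting only the groups compared, and leaving out each library. A window of 10 Mb was added after the data were seen, because 5 Mb held too few genes around Spry2 and Dusp6. Protein sequences were not analysed here.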

Additional observations from a re-analysis of the deposited data

Results flagged for a closer look

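For 6 members the change from ESC to T24 differed between the lines in edgeR's interaction test. The change in iEZR_CA minus that in WT was -0.39 for Spry2 (0.28 in WT, -0.11 in iEZR_CA), -1.35 for Spry4 (5.0 and 3.65 by line), -0.74 for Spred1 (1.78 and 1.04) and -1.70 for Spred3 (1.57 and -0.13) on the log2 scale. It was 0.42 for Dusp5 (0.74 and 1.16) and 0.63 for Dusp7 (-0.46 and 0.17), the 2 of the 6 with a positive difference. Over all genes tested, 38.3% were called in this test.

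From T24 to T48 the changes also differed for 6 members, against 46.2% of all genes called. The difference was 0.62 for Spry2 (-0.68 in WT, -0.056 in iEZR_CA), 0.54 for Spry4 (-0.75 and -0.20) and 1.13 for Dusp4 (0.85 and 1.98). It was -0.60 for Spred1 (0.63 and 0.03), -0.55 for Dusp6 (0.53 and -0.015) and -0.44 for Dusp7 (0.70 and 0.25). Groups of 3 libraries are too small to mark a single library as an outlier, but each was left out in turn. Without iEZR_CA ESC replicate 2 the Dusp5 difference over the first interval was 0.33 and not called in edgeR (adjusted p = 0.1). The other differences listed kept their calls.

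Scaled to spike-in RNA, the differences of Spry2 (-0.38, adjusted p = 0.19) and Dusp5 (0.44, adjusted p = 0.25) over the first interval and of Dusp7 (-0.49, adjusted p = 0.066) over the second were not called.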

How the results depend on the processing

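The count of members called kept within 1.5 times its value in all 9 comparisons under RLE factors, DESeq2, both filters, fitting only the groups compared and leaving out each library. Scaled to spike-in RNA it kept so in 8. For iEZR_CA from T24 to T48 it went from 6 to 3, all higher, while the share of all genes called went from 59.6% to 37.5%. Spike-in scaling moved the median of all genes by 0.137 and 0.129 in WT over the 2 intervals and by 0.152 and 0.097 in iEZR_CA, and 2 small changes turned: Spred2 in WT from T24 to T48 (-0.11, then 0.024, adjusted p = 0.9) and Spry2 in iEZR_CA from ESC to T24 (-0.11, then 0.039, adjusted p = 0.86). A further 13 calls of members were lost under it. Of these, Spred2 between the lines (-0.295, -0.20 and -0.23 at ESC, T24 and T48), Dusp5 in ESCs (-0.24), Spry4 at T48 (-0.16), Dusp5 in iEZR_CA from T24 to T48 (0.34) and the interactions of Spry2 (-0.38, adjusted p = 0.19) and Dusp5 (0.44, adjusted p = 0.25) over the first interval and Dusp7 (-0.49, adjusted p = 0.066) over the second were within 1.5 times their size with TMM. Spred1 at T24 (-0.14) and Spry4 (-0.10) and Spred2 (-0.007) in iEZR_CA from T24 to T48 were smaller by more than that, and Dusp7 in iEZR_CA from ESC to T24 (0.33, adjusted p = 0.057) was larger. For the other pathway genes compared, 27 values lost their call and 113 did not change sides of the threshold. It lowered the number of all genes called, from 10058 to 5506, 11253 to 7129 and 11282 to 7229 for the lines at ESC, T24 and T48, from 10340 to 6593 and 11015 to 6931 in iEZR_CA over the 2 intervals, and from 7081 to 2416 and 8526 to 3761 for the interactions. The higher and lower calls were then 5314 and 3318 in place of 5870 and 6212 for WT from ESC to T24, 5455 and 3368 in place of 6058 and 6079 from T24 to T48, 4542 and 2051 in place of 5009 and 5331 in iEZR_CA over the first interval, 4118 and 2813 in place of 5466 and 5549 over the second, 4355 and 2774 in place of 5697 and 5556 between the lines at T24, and 1656 and 760 in place of 3966 and 3115 for the first interaction. Spike-in sequences took 0.575% to 0.874% of the iEZR_CA T48 libraries, the widest range of the 6 groups. The narrowest was 0.734% to 0.766%, in WT at T24. The cause of the changed calls was not tested, nor was the part of this spread in them. With at least 10 counts in every library Dusp4 was not tested, since its lowest count was 5 in iEZR_CA ESCs. Leaving out a library ended the call of Spred2 in WT from T24 to T48 (WT T48 replicate 3, adjusted p = 0.074), of Spry2 in iEZR_CA from ESC to T24 (WT T48 replicate 2, iEZR_CA ESC replicate 1 or 3, or iEZR_CA T24 replicate 3, 0.068 to 0.16), of Dusp7 there (iEZR_CA ESC replicate 1, iEZR_CA T24 replicate 1 or 2, 0.13 to 0.2) and of Dusp5 in iEZR_CA from T24 to T48 (T24 replicate 2, T48 replicate 2 or 3, 0.06 to 0.11). The call of Dusp5 between the lines in ESCs ended without WT ESC replicate 2 (0.082) or iEZR_CA ESC replicate 2 (0.19). That of its first interaction ended without iEZR_CA ESC replicate 2 (0.1). Leaving out a library made a call of Spry1 (without T24 replicate 2, 0.04) and Spry2 (without T48 replicate 1, 0.043) in iEZR_CA from T24 to T48. Without WT T48 replicate 3, Spry1 was called between the lines at T48 (0.048) and in the second interaction (0.027). The second interaction of Dusp5 was called without any 1 of 8 libraries (0.019 to 0.05), with the stricter filter (0.033) and in the smaller fit (0.045). No paired analysis was possible because the labels carry no replicate numbers, and those used here follow accession order.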
